A study of Mus musculus with 4 samples.

Results

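The enzymes that write and erase methyl groups on DNA were followed across the nuclei of aged and young mouse liver. The set holds 7 genes, chosen by their symbols in the gene lists of the deposited matrices: the methyltransferases Dnmt1, Dnmt3a and Dnmt3b, the dioxygenases Tet1, Tet2 and Tet3, and Uhrf1. These are 7 of the 32285 genes in each matrix, and each symbol was found once. RNA was counted in single nuclei of snap-frozen liver. The mice were male, wild type and of the inbred strain C57BL6/J, and they gave 2 libraries from mice aged 30 months (aged) and 2 libraries from mice aged 2 months (young). The labels name no allele or treatment, and age alone separates the groups. Libraries of an age are numbered as replicates with no statement on whether they share an animal, so p-values measure only the spread between these libraries, which may be technical.

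DNMT3A and DNMT3B place new methyl groups on cytosines that are followed by guanine (CpG sites), whereas DNMT1 copies the pattern of the old strand onto the new strand after DNA replication. UHRF1 binds the hemimethylated sites behind the replication fork and brings DNMT1 to them, so both are best known from dividing cells. The TET enzymes use oxygen and 2-oxoglutarate to oxidise 5-methylcytosine, the step that starts its removal. Most hepatocytes of an adult liver rest outside the cell cycle, and hepatocytes near the central vein (pericentral) and near the portal tract (periportal) carry out different parts of metabolism.

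In GENCODE vM21 on GRCm38, the build that the labels call mm10, Dnmt3a lies on chromosome 12 from 3806007 to 3914443 (plus strand) and Dnmt3b on chromosome 2 from 153649450 to 153687730 (plus strand). Dnmt1 lies on chromosome 9 from 20907209 to 20959888 (minus strand), and Uhrf1 on chromosome 17 from 56303321 to 56323486 (plus strand). Tet1 lies on chromosome 10 from 62804570 to 62908996, Tet2 on chromosome 3 from 133463679 to 133545139 and Tet3 on chromosome 6 from 83362373 to 83459084, each on the minus strand. A noncoding gene that is also counted in the files overlaps 4 of them on the opposite strand: Dnmt3aos over 2952 bases of Dnmt3a, Dnmt3bos over 837 bases of Dnmt3b, Gm42567 over 43 bases of Tet2 and B230319C09Rik over 6568 bases of Tet3. The sources used here do not state whether the counting used strand, so reads from these stretches may belong to either partner.

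The 4 matrices held 2666 to 14718 barcodes, of which 1935 to 12219 per library were kept as nuclei, with a median of 920 to 3177 UMIs (unique molecular identifiers, each marking 1 captured RNA molecule). Nuclei were clustered without the 7 genes and their pathway lists, and clusters were named "X-like" from marker genes. Nuclei left unnamed, 482 and 257 in the aged and 9 and 16 in the young libraries, entered no class. Of these, 442 and 223 aged and 7 and 16 young nuclei lay in 1 cluster with a median of 5774 UMIs. Its endothelial and stellate/fibroblast marker scores were close (1.95 and 1.86). The part of this uneven loss in the age comparisons was not tested. Hepatocyte-like nuclei numbered 5648 and 8697 in the aged libraries and 1599 and 9642 in the young libraries. Stellate/fibroblast-like nuclei numbered 320 and 1215 in the aged and 197 and 1466 in the young libraries, and endothelial-like nuclei 295 and 979 in the aged and 68 and 681 in the young libraries. Macrophage-, cholangiocyte- and mesothelial-like nuclei reached 20 in 3 libraries each. The stellate/fibroblast-like class was not the same population in every library, since 821 of its 1466 nuclei in young replicate 2 lay in a cluster that held 0 and 5 nuclei of the aged libraries and 4 of young replicate 1. Its own markers summed to 19395 and 18813 CPM in the aged and 20519 and 5541 CPM in the young libraries. Endothelial markers summed to 15315 and 3696 CPM in the aged and 5473 and 3536 CPM in the young endothelial-like nuclei, so that aged replicate 1 stood apart. Different clusters held most hepatocyte-like nuclei in different libraries. UMIs of hepatocyte markers were present in the other classes, and whether they came from free RNA or from mixed nuclei was not tested. Libraries of a group were not copies, since their hepatocyte-like counts differed by 128 (aged) and 80.5 (young) in chi-square per degree of freedom. Any 2 libraries shared 8 to 67 cell barcodes.

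Levels are given in CPM, counts per 1000000 UMIs of all nuclei of a class in a library, and an SD is over libraries. Dnmt3a was the member that passed the planned filter and differed both between classes and between the zones of the lobule. Its mean was highest in macrophage-like nuclei among the 6 classes with at least 20 nuclei in 3 or more libraries, at 411 and 450 CPM in aged replicates 1 and 2 and 256 CPM in young replicate 2, a mean of 372 ± 103 CPM (SD, n = 3). Hepatocyte-like nuclei were at 121 and 187 CPM in the aged libraries and 130 and 136 CPM in the young libraries, a mean of 143 ± 29.6 CPM (SD, n = 4). Each macrophage-like value lay above each hepatocyte-like value in CPM. Under TMM scaling the ranges overlapped, at 463 and 477 CPM in aged and 238 CPM in young macrophage-like nuclei, against 183 and 251 CPM in aged and 173 and 169 CPM in young hepatocyte-like nuclei. In young replicate 2 mesothelial-like nuclei (285 CPM) were above macrophage-like nuclei. The remaining young library held 8 macrophage-like nuclei with 1 Dnmt3a UMI and was not used.

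The macrophage-, cholangiocyte- and mesothelial-like classes were set against hepatocyte-like nuclei after the data were seen, in an edgeR fit with the library as a block. In macrophage-like nuclei Dnmt3a was 1.04 higher on the log2 scale (SE 0.25, edgeR adjusted p = 0.0126), where 8.48% of all genes tested differed and the median gene stood at -0.20. The call was lost without aged replicate 1 (0.82, edgeR adjusted p = 0.168) and without young replicate 1 (0.93, edgeR adjusted p = 0.0638). It was also lost when genes with low counts were kept in the fit (0.80, edgeR adjusted p = 0.154), and the sign was positive in all of these. UMIs of the hepatocyte markers were 1.58% and 1.46% of the total in aged and 1.92% in young macrophage-like nuclei, against 2.80% and 2.05% in aged and 2.64% and 2.47% in young hepatocyte-like nuclei. Over the nuclei with little hepatocyte RNA, macrophage-like nuclei could not be fitted because young replicate 2 kept only 12 of them.

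Mesothelial-like nuclei, from the cell layer that covers the liver, held Dnmt3a at 327 CPM in aged replicate 2 and at 261 and 285 CPM in the young libraries. The difference from hepatocyte-like nuclei was 0.75 on the log2 scale (SE 0.26, edgeR adjusted p = 0.0416), where 29.9% of all genes tested differed and the median gene stood at -0.43. This call rests on 49, 10 and 17 UMIs, and it was lost without any of the libraries aged replicate 1, young replicate 1 and young replicate 2 (edgeR adjusted p = 0.267, 0.108 and 0.273). It was also lost with every gene kept (0.41, edgeR adjusted p = 0.733), with at most 1% mitochondrial UMIs (0.43, edgeR adjusted p = 0.490) and over nuclei with little hepatocyte RNA (0.69, edgeR adjusted p = 0.154). Scaling by TMM over all sums changed the mean to 248 CPM in mesothelial-like and 194 CPM in hepatocyte-like nuclei, against 291 and 143 CPM without it.

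Dnmt3a in the stellate/fibroblast-like class, the retinoid-storing and matrix-producing cells, was at 231 and 228 CPM in the aged and 203 and 155 CPM in the young libraries. Endothelial-like nuclei held it at 241 and 225 CPM in the aged and 149 and 152 CPM in the young libraries. Neither class differed from hepatocyte-like nuclei in the edgeR test (0.49, SE 0.22, adjusted p = 0.119, and 0.23, SE 0.22, adjusted p = 0.585). In the stellate/fibroblast-like class 0 of 5 members tested passed, where 33.9% of genes did, and in the endothelial-like class 0 of 5, where 9.73% did. Over stellate/fibroblast-like nuclei with little hepatocyte RNA, Dnmt3a stood 0.59 higher on the log2 scale than in hepatocyte-like nuclei (edgeR adjusted p = 0.0349), where 49.4% of genes differed. Those nuclei numbered 290 and 779 in the aged and 172 and 214 in the young libraries. Over endothelial-like nuclei with little hepatocyte RNA, 0 of 3 members tested passed, where 1930 of 6986 genes did. These were only 205 and 182 nuclei in the aged and 31 and 52 in the young libraries. In cholangiocyte-like nuclei, the lining of the bile ducts, Dnmt3a was at 234 and 221 CPM in the aged libraries and 175 CPM in young replicate 2. It did not differ from hepatocyte-like nuclei in the edgeR test (0.18, SE 0.27, adjusted p = 0.695). Ordered by mean level over these 6 classes, Dnmt3a ran from macrophage- over mesothelial-, cholangiocyte-, stellate/fibroblast- and endothelial- to hepatocyte-like nuclei. Neighbours in this order overlapped over their libraries, except that mesothelial-like values lay above cholangiocyte-like values.

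**Figure D1:**
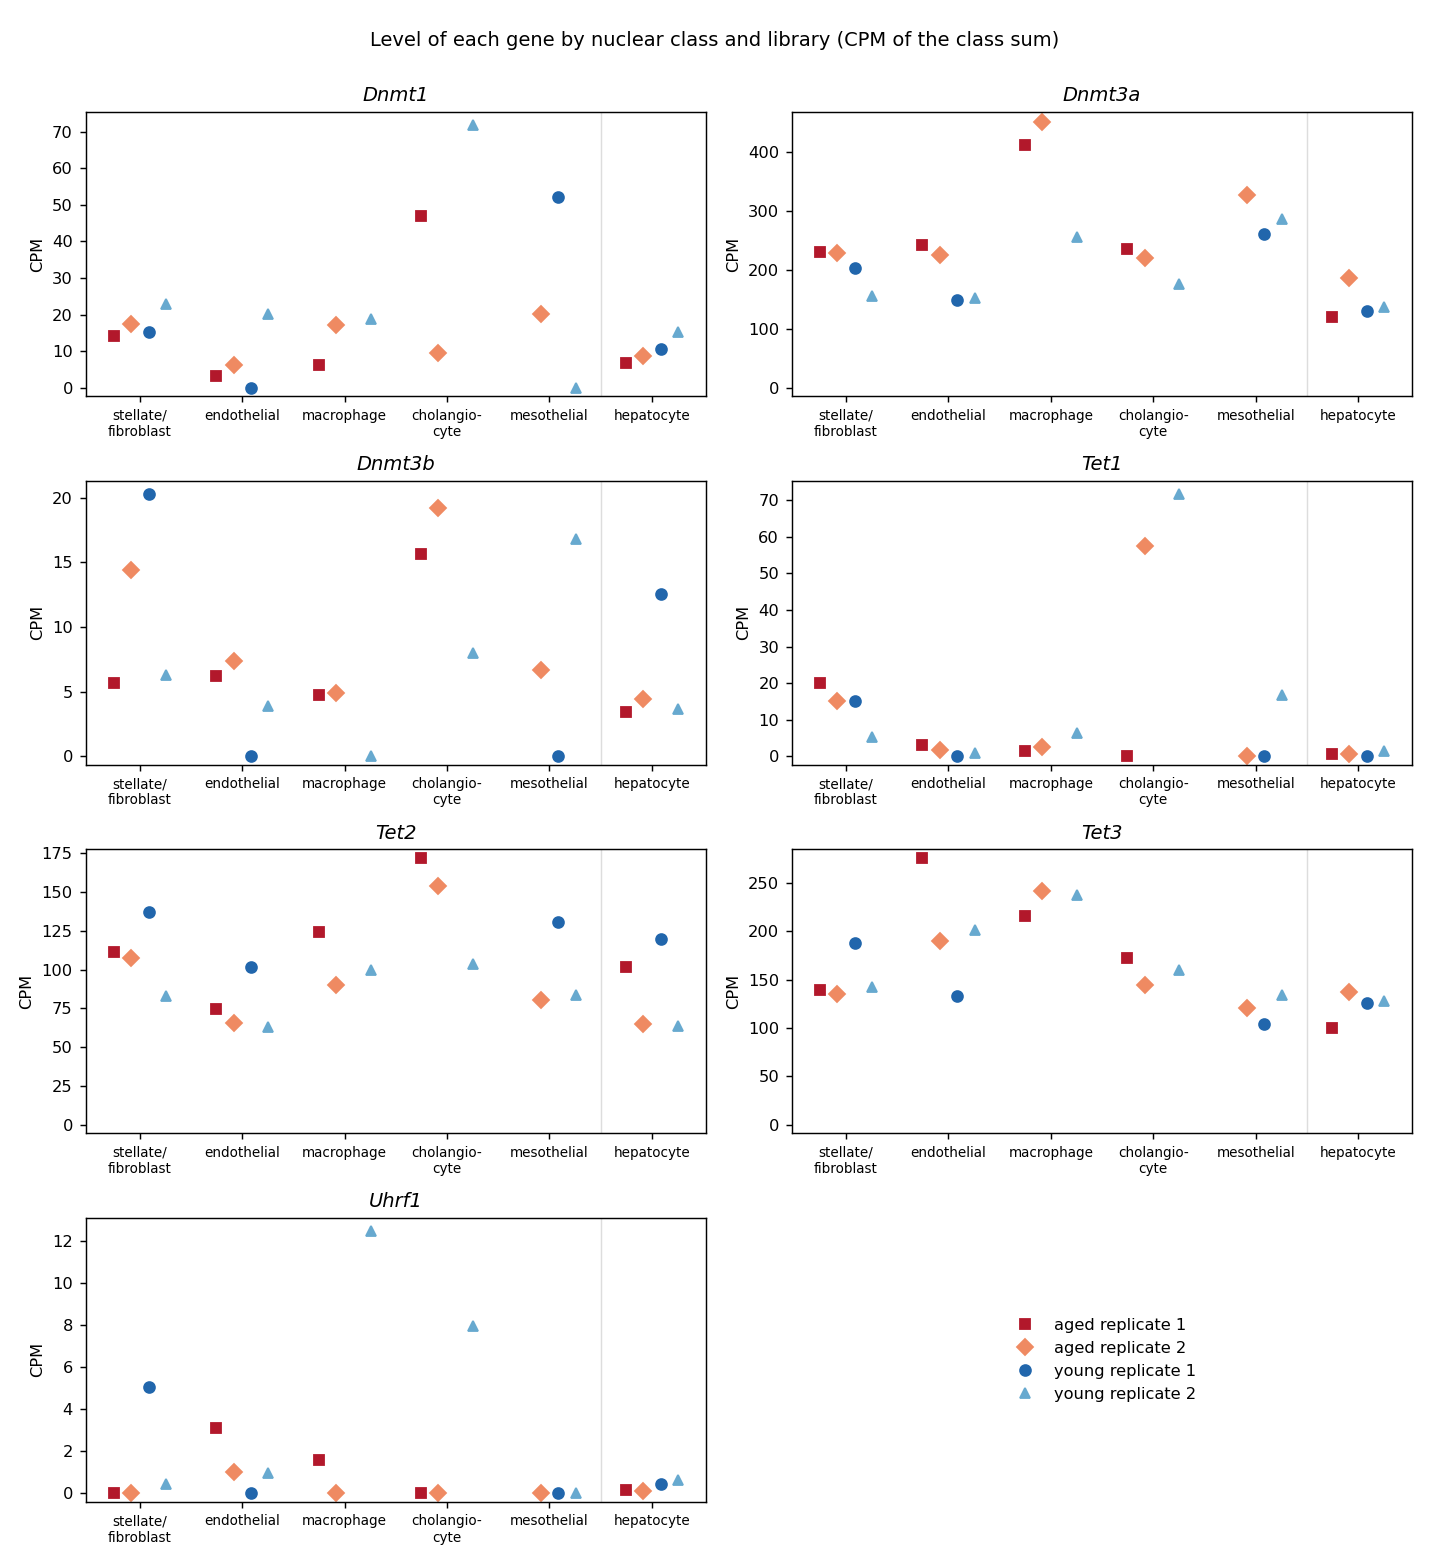
Level in CPM of the class sum (vertical axes, each on its own scale) of the 7 genes in 6 nuclear classes, with 1 point per library that held at least 20 nuclei of the class, aged libraries as red and orange squares and diamonds left of young libraries as blue circles and triangles. The 2 aged Dnmt3a points of macrophage-like nuclei (411 and 450 CPM) are the highest of that gene, its young point (256 CPM) lies below those of mesothelial-like nuclei, and Tet1 points stand near 0 except in stellate/fibroblast- and cholangiocyte-like nuclei and 1 mesothelial-like sum.

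Dnmt3b, the other de novo methyltransferase, was counted far less often, with 481 UMIs in all kept nuclei. Its hepatocyte-like level was 3.5 and 4.4 CPM in the aged libraries and 12.6 and 3.7 CPM in the young libraries. Stellate/fibroblast-like nuclei were at 5.7 and 14.4 CPM in the aged and 20.3 and 6.3 CPM in the young libraries. In each library the stellate/fibroblast-like value was above the hepatocyte-like value, with a log2 difference of 1.07 (SE 0.42) that did not pass the edgeR test (adjusted p = 0.0758). The ranges of both classes overlapped.

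Dnmt1, the maintenance methyltransferase, had 899 UMIs in all kept nuclei, 76.1% of them in hepatocyte-like nuclei. Stellate/fibroblast-like nuclei held 14.2 and 17.4 CPM in the aged and 15.2 and 22.9 CPM in the young libraries, against 6.7 and 8.7 CPM in aged and 10.5 and 15.2 CPM in young hepatocyte-like nuclei. The stellate/fibroblast-like value was higher in each of the 4 libraries, and the log2 difference of 0.75 (SE 0.36) did not pass the edgeR test (adjusted p = 0.139). Cholangiocyte-like nuclei held 46.9 and 9.6 CPM in the aged libraries and 71.7 CPM in young replicate 2, from 3, 1 and 9 UMIs. The log2 difference from hepatocyte-like nuclei was 1.63 (SE 0.69, edgeR adjusted p = 0.102), which DESeq2 called (1.84, adjusted p = 0.0118), as it did 26.6% of genes. In that class 0 of the 4 members tested passed in edgeR's test, where 24.9% of genes did. Uhrf1, the partner of DNMT1, had 32 UMIs in all kept nuclei, 18 of them in hepatocyte-like nuclei. At this depth no class difference of Uhrf1 was detectable.

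Tet1 had its highest mean levels in stellate/fibroblast- and cholangiocyte-like nuclei. Of its 129 UMIs in all kept nuclei, 42 (32.6%) lay in stellate/fibroblast-like and 16 (12.4%) in cholangiocyte-like nuclei. Stellate/fibroblast-like nuclei held 19.9 and 15.2 CPM in the aged and 15.2 and 5.4 CPM in the young libraries, against 0.74 and 0.52 CPM in aged and 0.22 and 1.55 CPM in young hepatocyte-like nuclei. These ranges do not overlap, and the counts behind them are 7, 20, 3 and 12 UMIs against 13, 18, 2 and 17 UMIs. Tet1 fell below the low-count filter of the planned fit. With every gene kept in the fit, the log2 difference was 3.54 (edgeR adjusted p = 5.3e-10), where 10.7% of genes were called higher.

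Cholangiocyte-like nuclei held Tet1 at 57.5 CPM in aged replicate 2 and 71.7 CPM in young replicate 2, from 6 and 9 UMIs. Aged replicate 1 had 0 UMIs in 34 nuclei, which allows up to 46.9 CPM by the floor of 3 counts. With every gene kept, the log2 difference from hepatocyte-like nuclei was 5.27 (edgeR adjusted p = 3.47e-11), where 4.20% of genes were called higher. The call was lost with at least 1000 UMIs per nucleus, where 0 of 5 members tested passed in this class. Over the 3 alternatives that kept Tet1, the log2 difference ran from 5.29 to 5.98. In endothelial-like nuclei Tet1 had 1 and 5 UMIs in the aged and 0 and 1 in the young libraries, and in macrophage-like nuclei it had 1 UMI in each of the 3 libraries with at least 20 nuclei. UMIs of the hepatocyte markers were 0.84% and 0.88% of the total in aged and 0.77% and 1.74% in young stellate/fibroblast-like nuclei. Hepatocyte-like nuclei held 2.80% and 2.05% in the aged and 2.64% and 2.47% in the young libraries. The stellate/fibroblast-like sum with the largest share, that of young replicate 2, held the lowest Tet1 level of this class. The part of hepatocyte RNA in the Tet1 levels was not tested.

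Tet2 and Tet3 were found in each of the 6 classes. Tet3 was at 216 and 241 CPM in aged and 237 CPM in young macrophage-like nuclei, against 100 and 137 CPM in aged and 126 and 128 CPM in young hepatocyte-like nuclei. Every macrophage-like value of Tet3 lay above every hepatocyte-like value, and the log2 difference of 0.72 (SE 0.27) did not pass the edgeR test (adjusted p = 0.126). DESeq2 called it (0.78, adjusted p = 0.0389), as it did 11.6% of genes, which made 2 members in that class against 1 in the edgeR fit. Endothelial-like nuclei held Tet3 at 276 and 189 CPM in the aged and 133 and 201 CPM in the young libraries, with a log2 difference of 0.52 from hepatocyte-like nuclei (SE 0.25, edgeR adjusted p = 0.225). Tet2 averaged 143 ± 35.4 CPM in cholangiocyte-like nuclei (SD, n = 3) and 76.0 ± 17.8 CPM in endothelial-like nuclei (SD, n = 4), the ends of its order among the 6 classes, and 87.5 ± 27.8 CPM in hepatocyte-like nuclei (SD, n = 4). Its neighbours in the order of classes overlapped throughout, and its log2 differences from hepatocyte-like nuclei lay between -0.34 and 0.50.

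**Figure D2:**
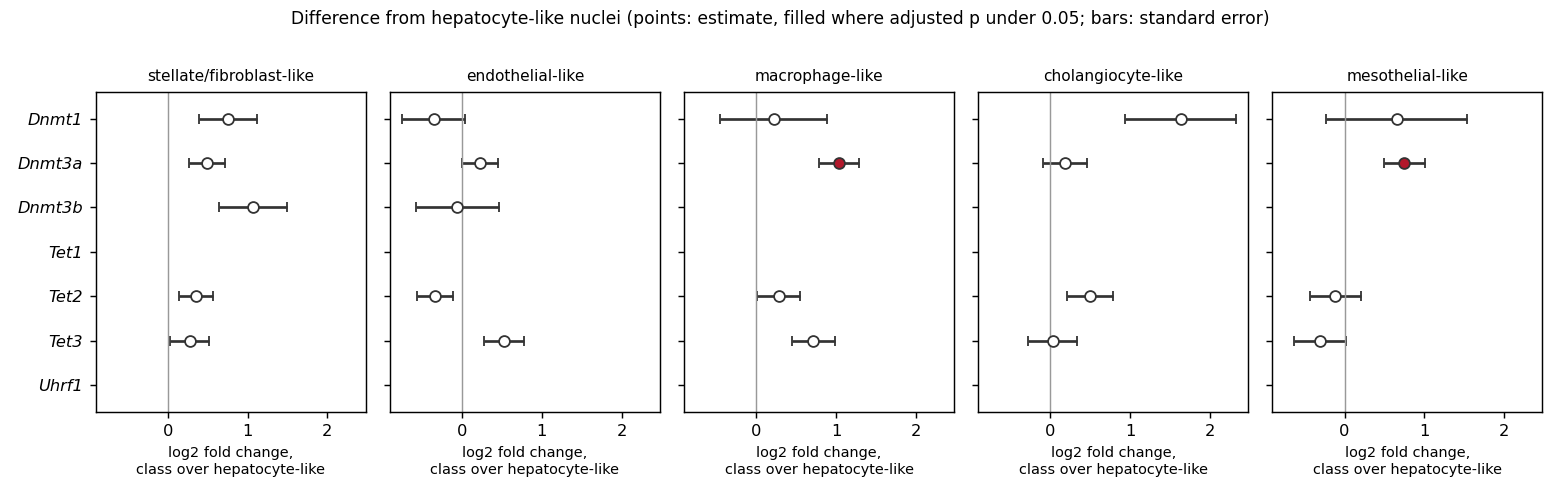
Log2 fold change of each member in 5 classes over hepatocyte-like nuclei (horizontal axes), with the estimate as a point, its standard error as a bar and red fill where the edgeR adjusted p was under 0.05. Filled points are Dnmt3a in macrophage-like (1.04) and mesothelial-like nuclei (0.75), and a row without a point marks a gene below the low-count filter.

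To ask where in the lobule the enzymes are expressed, hepatocyte-like nuclei of each library were ranked by how far their pericentral landmark genes exceeded the periportal ones. The highest-scoring and the lowest-scoring nuclei, 1 in 3 of all each, formed the pericentral and the periportal part. The parts are ranges of this score and no cell types. Glul, a landmark that marks the cells around the central vein, was 16.4 to 46.6 times higher in the pericentral than in the periportal part, a value that the score itself uses.

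Dnmt3a was higher in the pericentral part of all 4 libraries. Aged replicate 1 held 138 CPM in the pericentral and 103 CPM in the periportal part, from 899 and 625 UMIs. Aged replicate 2 held 219 CPM in the pericentral and 158 CPM in the periportal part, from 2722 and 1899 UMIs. In young replicate 1 the values were 145 CPM pericentral and 110 CPM periportal, and in young replicate 2 they were 159 CPM pericentral and 122 CPM periportal. The ratio within a library was 1.30 to 1.39. The log2 difference was 0.42 (SE 0.07, edgeR adjusted p = 0.00132), and of the 5 members tested only Dnmt3a passed. Of all genes tested 21.4% differed between the parts, 10.8% of them all being higher in the pericentral part. The difference did not change detectably with age (zone by age 0.07, SE 0.13, edgeR adjusted p = 0.967, where 0.179% of genes passed), and 0 members passed that test.

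Beside this, the median UMI count per nucleus was 2655 and 3133 in the aged and 4012 and 980.5 in the young pericentral parts, against 2605.5 and 3453 in the aged and 3220 and 933 in the young periportal parts. The median share of hepatocyte marker UMIs was 2.28% and 1.52% in the aged and 2.01% and 2.02% in the young pericentral parts, against 3.07% and 2.30% in the aged and 3.06% and 2.71% in the young periportal parts. Their part in the result was not tested. The Dnmt3a call held in each of the 11 alternatives tried, with log2 differences of 0.31 to 0.44 and an edgeR or DESeq2 adjusted p of at most 0.0260.

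Split into 5 equal bins of the score, the most pericentral bin held the highest Dnmt3a level in each library. It held 149 CPM (137 to 161) and 240 CPM (229 to 251) in the aged and 160 CPM (141 to 182) and 165 CPM (149 to 183) in the young libraries. The most periportal bin held 104 CPM (94.0 to 114) and 156 CPM (147 to 165) in the aged and 95.2 CPM (78.8 to 114) and 120 CPM (106 to 135) in the young libraries. Ranges in brackets are exact 95% Poisson intervals, which cover counting error only. The intervals of the end bins do not overlap in any library, and the middle bins lay between the ends. Each step towards the central vein was upward in the aged libraries, and the young libraries each had 1 downward step among the middle bins. These bins were chosen after the data were seen.

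**Figure D3:**
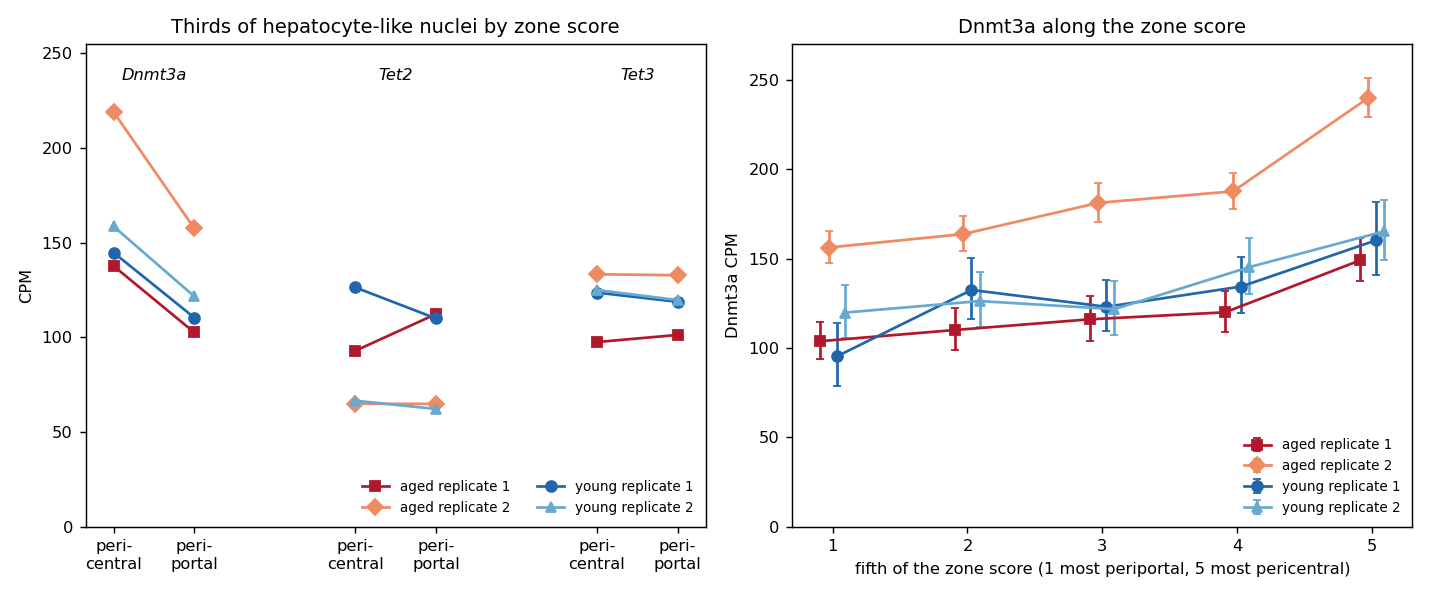
Left, CPM (vertical axis) of Dnmt3a, Tet2 and Tet3 in the pericentral and periportal part of hepatocyte-like nuclei, with a line per library. Right, Dnmt3a CPM in 5 equal bins of the zone score (horizontal axis, bin 1 most periportal and bin 5 most pericentral) with exact 95% Poisson intervals as bars. All 4 Dnmt3a lines slope from pericentral down to periportal, and those of Tet2 and Tet3 do not share a direction.

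The other members gave no such order. Tet2 was 0.83 and 1.00 times as high in the pericentral as in the periportal part in the aged libraries and 1.15 and 1.07 times in the young libraries (log2 difference 0.01, SE 0.08, edgeR adjusted p = 0.951). Tet3 had ratios of 0.96 and 1.00 in the aged and 1.04 and 1.04 in the young libraries (log2 difference 0.02, SE 0.07, edgeR adjusted p = 0.875). Dnmt1 differed by 0.24 (SE 0.17, edgeR adjusted p = 0.373) and Dnmt3b by -0.11 (SE 0.24, edgeR adjusted p = 0.802), both with ratios on either side of 1 among the libraries. Tet1 and Uhrf1 were below the filter.

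To compare aged with young liver, each of the 3 classes with at least 20 nuclei in every library was tested with age group as the only term. No member passed in any of them. In hepatocyte-like nuclei 0 of 6 members tested passed, where 0.0318% of genes did. In stellate/fibroblast-like nuclei 0 of 6 passed and in endothelial-like nuclei 0 of 3, where 0% of genes passed in both. At an unadjusted p under 0.05 in edgeR's test there were 0 members, against 19.9%, 10.9% and 2.91% of all genes in the hepatocyte-, stellate/fibroblast- and endothelial-like class. DESeq2 called 0 members for age in each class.

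Dnmt1 in hepatocyte-like nuclei was the only member above the filter whose aged values all lay below the young values there. It was at 6.7 and 8.7 CPM in the aged libraries, from 118 and 304 UMIs, against 10.5 and 15.2 CPM in the young libraries, from 95 and 167 UMIs. The means were 7.7 ± 1.5 CPM in aged and 12.9 ± 3.4 CPM in young nuclei (SD, n = 2 each), with a log2 fold change of -0.67 (SE 0.38, edgeR adjusted p = 0.370). Of all genes tested, 29.3% had both aged libraries below both young libraries. Uhrf1 also lay below, at 0.17 and 0.11 CPM in the aged and 0.44 and 0.64 CPM in the young libraries, from 3 and 4 UMIs in the aged and 4 and 7 UMIs in the young libraries, so that a difference was not detectable at this depth.

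Dnmt3a was higher in aged than in young nuclei of the endothelial-like class, at 233 ± 11.6 CPM in aged and 150 ± 2.2 CPM in young nuclei (SD, n = 2 each), without overlap. The log2 fold change of 0.69 (SE 0.44) did not pass the edgeR test (adjusted p = 0.999), and 14.3% of genes had both aged libraries above both young libraries in that class. In stellate/fibroblast-like nuclei its mean was 230 ± 1.8 CPM in aged and 179 ± 34.0 CPM in young nuclei (SD, n = 2 each), again without overlap, as for 18.1% of genes there (log2 fold change 0.47, SE 0.41, edgeR adjusted p = 0.690). Without young replicate 2, the library whose nuclei of this class came mostly from a cluster of its own, the log2 fold change was 0.25, and without young replicate 1 it was 0.76. In hepatocyte-like nuclei the groups overlapped, at 154 ± 46.8 CPM in aged and 133 ± 4.3 CPM in young nuclei (SD, n = 2 each), and the log2 fold change of 0.26 (SE 0.33, edgeR adjusted p = 0.708) was -0.02 without aged replicate 2. The age effects of Dnmt3a did not differ detectably between hepatocyte-like nuclei and the endothelial-like (0.34, SE 0.45, edgeR adjusted p = 1) or the stellate/fibroblast-like class (0.27, SE 0.44, edgeR adjusted p = 0.903). No member passed this test of the difference in either class, where 0% and 0.153% of genes did. Hepatocyte marker UMIs were 1.12% and 1.61% in aged and 2.12% and 1.89% in young endothelial-like nuclei. Over the nuclei of that class with little hepatocyte RNA, 0 of 3 members tested passed for age, where 0 of 3943 genes did. In edgeR's test 1 of these members had an unadjusted p under 0.05, as did 167 genes. Over 13 alternatives the Dnmt3a log2 fold change in that class ran from 0.56 to 1.32. The part of hepatocyte RNA in the age differences of that class was not tested further. Without aged replicate 1, whose endothelial markers stood apart, the log2 fold change of Dnmt3a in that class was 0.71.

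Among the erasers, Tet2 in hepatocyte-like nuclei was at 102 and 64.7 CPM in the aged and 120 and 63.9 CPM in the young libraries, so that the libraries of each group differed from each other by more than the groups did (log2 fold change -0.12, SE 0.45, edgeR adjusted p = 0.913). Tet3 was at 100 and 137 CPM in the aged and 126 and 128 CPM in the young libraries (log2 fold change -0.05, SE 0.31, edgeR adjusted p = 0.956). In stellate/fibroblast-like nuclei Tet3 lay at 140 and 135 CPM in the aged and 188 and 142 CPM in the young libraries, without overlap, as for 23.8% of genes (log2 fold change -0.15, SE 0.40, edgeR adjusted p = 0.924). Tet1 in the same class had a log2 fold change of 1.34 (SE 0.72, edgeR adjusted p = 0.529), with its groups overlapping. Dnmt3b in hepatocyte-like nuclei had a log2 fold change of -1.04 (SE 0.67, edgeR adjusted p = 0.429) that turned to 0.29 without young replicate 1, the library at 12.6 CPM.

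**Figure D4:**
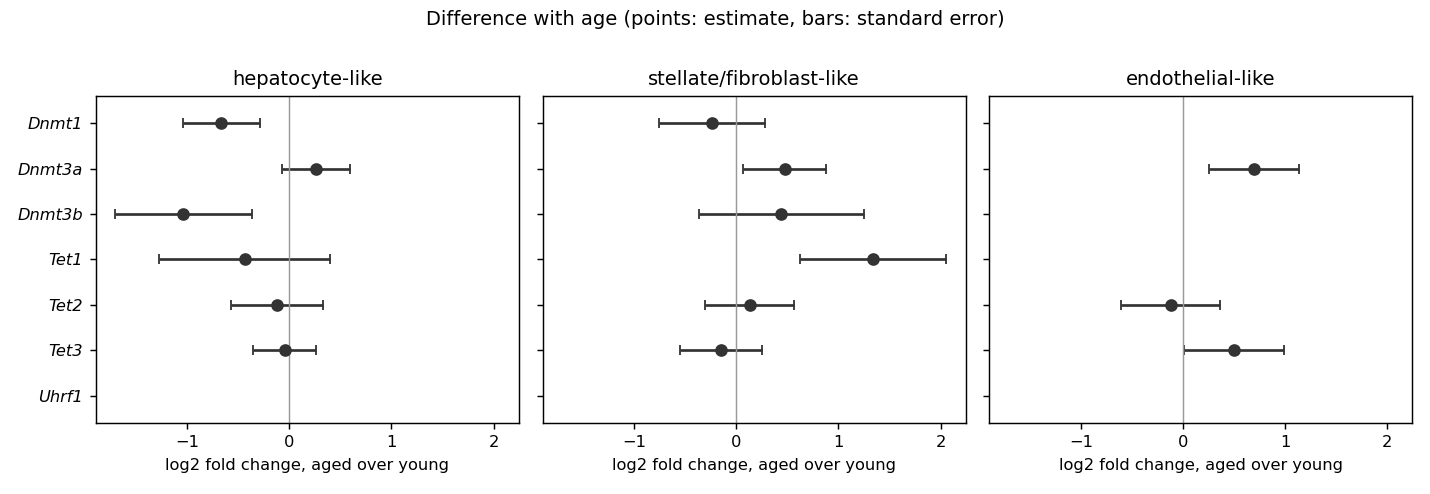
Log2 fold change of aged over young libraries (horizontal axes) for each member above the low-count filter in 3 classes, with its standard error as a bar. No point passed the edgeR test, and the estimates run from -1.04 (Dnmt3b, hepatocyte-like) to 1.34 (Tet1, stellate/fibroblast-like).

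Dnmt1 and Uhrf1 were also read against the cell cycle, since both act at replication. A nucleus was called cycling when at least 2 of 20 cycling genes had a UMI, a rule that uses none of the 7 members. The aged libraries held 80 and 50 such nuclei and the young libraries 35 and 45, 210 in all, which held 1.81% of the UMIs of the named nuclei. Their median UMI count was 3443 and 4373 in the aged and 15061 and 1463 in the young libraries, above the 1716.5 and 2237 in the aged and 3123 and 919 in the young libraries of the other nuclei. Deeper nuclei reach 2 genes more easily. All named classes were pooled, and their mix differed. Hepatocyte-like nuclei were 50 of 80 and 28 of 50 cycling nuclei in the aged libraries. They were 33 of 35 and 11 of 45 in the young libraries. Among the other nuclei they were 5598 of 6654 and 8669 of 11585 in the aged libraries. In the young libraries these were 1566 of 1891 and 9631 of 12158. The part of depth and of class mix in the values below was not tested.

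Uhrf1 had 8 of its 30 UMIs (26.7%, exact 95% binomial interval 12.3% to 45.9%) in cycling nuclei. By library these were 2 of 5 and 2 of 8 UMIs in aged replicates 1 and 2, 4 of 5 in young replicate 1 and 0 of 12 in young replicate 2. Uhrf1 was below the filter of the planned fit. With every gene kept, a fit chosen after the data were seen, it was 4.43 higher in cycling than in other nuclei on the log2 scale (edgeR adjusted p = 5.02e-04), where 1.03% of genes were called higher.

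Dnmt1 had 28 of 854 UMIs (3.28%, interval 2.19% to 4.70%) in cycling nuclei. The level was 16.1 and 15.1 CPM in aged and 16.6 and 59.8 CPM in young cycling nuclei, against 6.9 and 9.0 CPM in the other aged and 10.3 and 17.1 CPM in the other young nuclei. It was higher in cycling nuclei in 4 of 4 libraries, from 7 and 5 UMIs in the aged and 11 and 5 UMIs in the young cycling nuclei. The log2 difference of 0.94 (SE 0.38, unadjusted p = 0.0128) did not pass the edgeR test (adjusted p = 0.248), and 0 of 5 members tested passed, where 2.39% of genes did. Dnmt3a was at -0.06 (SE 0.13), Tet2 at -0.07 (SE 0.15), Tet3 at 0.24 (SE 0.13) and Dnmt3b at 0.14 (SE 0.55), with none past the threshold. Where at least 3 cycling genes were asked for, 18 to 42 nuclei per library remained. Dnmt1 was then at 34.3 and 59.6 CPM in aged and 8.4 and 63.8 CPM in young cycling nuclei, against 6.8 and 9.0 CPM in the other aged and 10.9 and 17.3 CPM in the other young nuclei, so that young replicate 1 no longer shared the direction. Uhrf1 then had 2 and 1 UMIs in the aged and 0 and 0 in the young cycling nuclei.

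**Figure D5:**
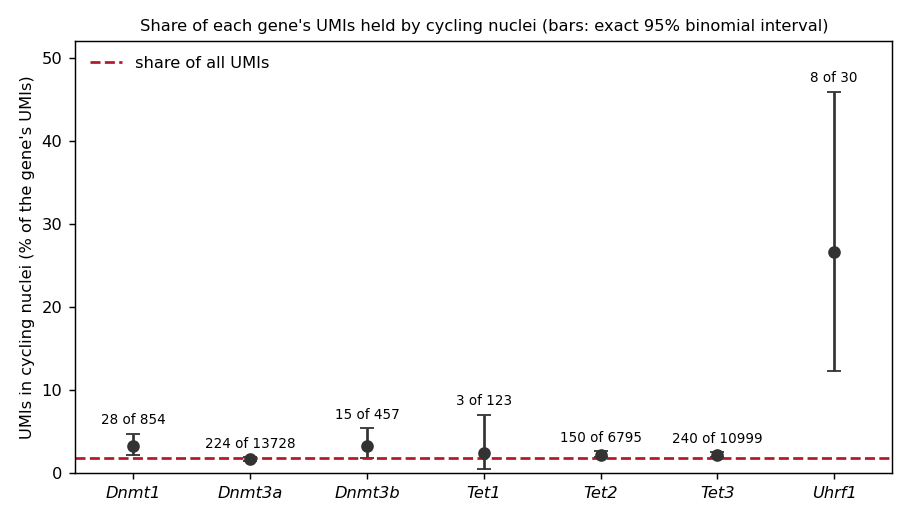
Share of each gene's UMIs that lay in cycling nuclei (vertical axis, percent, summed over the 4 libraries), with exact 95% binomial intervals as bars, the counts above them and a dashed line at the 1.81% of all UMIs. Uhrf1 stands highest at 26.7%, Dnmt1 and Dnmt3b stand at 3.28%, and Dnmt3a at 1.63% is the only member below the line. The shares are not adjusted for library, and 13 of the 15 Dnmt3b UMIs in cycling nuclei came from young replicate 1.

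E2F factors drive genes of the replication phase, so the letters they are known to bind (TTTCCCGC, TTTCGCGC, TTTGCCGC and TTTGGCGC, on either strand) were looked for in the 250 bases before each start that RefSeq annotates on GRCm38.p6. All 7 members matched, with 12 starts. The letters were found before 2 of these starts, those of Dnmt1 and Uhrf1, and before 1.86% of all 32851 starts in the table. The stretches of 30 bases around them are shown because they belong to the members described above as acting at replication. They are given 5′ to 3′ in the direction of the gene with the match in capitals, and Dnmt1 carries it on the opposite strand.
Dnmt1, chr9:20952824-20952853, minus strand: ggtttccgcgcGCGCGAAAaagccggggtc
Uhrf1, chr17:56304117-56304146, plus strand: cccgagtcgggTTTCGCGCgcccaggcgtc
The match begins 219 bases before 1 of 3 annotated starts of Dnmt1 and 185 bases before 1 of 2 annotated starts of Uhrf1. The counts are per gene and do not tell which start was used. A match is a description of letters and not a binding site. The letters CTTTGAA and CTTTGAT, to which the TCF factors of the pericentral Wnt pathway bind, were found before 1 start of Dnmt1, before 0 of the 3 starts of Dnmt3a and before 7.48% of all starts. The 250 bases held 2 to 51 CpG sites before the starts of the members, against a median of 6 over all starts.

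Genes that work with the 7 members were followed in lists of the pathway. No listed gene passed for age in hepatocyte-, stellate/fibroblast- or endothelial-like nuclei in edgeR's test. In hepatocyte-like nuclei 8 of 10 readers of methylated DNA had a log2 fold change below 0 with a median of -0.39, against 51.3% of all genes below 0 and a median of -0.02. The smallest p among all lists belonged to Mbd6, which carries a domain like that of methyl-CpG binding proteins. It was at 24.6 and 34.6 CPM in the aged and 64.8 and 118 CPM in the young libraries (log2 fold change -1.54, SE 0.36, edgeR adjusted p = 0.143). Mbd1, which binds methylated CpG sites, was at 184 and 140 CPM in the aged and 392 and 434 CPM in the young libraries (log2 fold change -1.29, SE 0.34, edgeR adjusted p = 0.163). In both genes, which were picked by p, the groups did not overlap. Of all genes tested in this class, 29.3% had both aged libraries below both young libraries. DESeq2 called Mbd6 and Mbd1 (adjusted p = 0.0113 and 0.0213) and Mat2a, described next (adjusted p = 0.0455), where it called 5.91% of genes. Mbd6 was also called with every gene kept (edgeR adjusted p = 0.00861), where 1855 of 25279 genes were called. Without 1 library its log2 fold change ran from -1.81 to -1.15.

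Of 15 genes of the methyl donor cycle, which makes and recycles S-adenosylmethionine, 8 were above and 7 below 0 in hepatocyte-like nuclei, with a median of 0.11. Mat2a, which makes S-adenosylmethionine, was at 79.0 and 84.2 CPM in the aged and 168 and 191 CPM in the young libraries (log2 fold change -1.08, SE 0.29, edgeR adjusted p = 0.164). Pemt, which spends S-adenosylmethionine on phosphatidylcholine, was at 188 and 157 CPM in the aged and 54.7 and 128 CPM in the young libraries (log2 fold change 1.02, edgeR adjusted p = 0.226). Bhmt, which remakes methionine with betaine, was at 375 and 103 CPM in the aged and 72.0 and 117 CPM in the young libraries, overlapping (log2 fold change 1.43, edgeR adjusted p = 0.244). The Bhmt value was 0.20 without aged replicate 1 and 2.13 without aged replicate 2. With every gene kept Bhmt was called (1.45, edgeR adjusted p = 0.0147), where 1855 of 25279 genes were called.

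The list of TET cofactor supply holds enzymes around 2-oxoglutarate and its competitors succinate and fumarate, and the vitamin C genes Gulo, Slc23a1 and Slc23a2. In hepatocyte-like nuclei 7 of 10 genes of the list were below 0, with a median of -0.16. Idh3a, a subunit of the mitochondrial isocitrate dehydrogenase that makes 2-oxoglutarate, was at 12.8 and 17.2 CPM in the aged and 32.4 and 33.0 CPM in the young libraries (log2 fold change -1.07, SE 0.32, edgeR adjusted p = 0.172). Of the cycling genes 14 of 16 tested were below 0, with a median of -0.79. Among those and the replication genes, Cenpf had a log2 fold change of -1.70 and Rrm2 of -1.75, both without passing (edgeR adjusted p = 0.236 and 0.202). Both genes were scarce. Cenpf was at 0.34 and 0.26 CPM in the aged and 1.10 and 0.91 CPM in the young libraries. Rrm2 was at 0.74 and 0.86 CPM in the aged and 1.65 and 4.11 CPM in the young libraries. The median was -0.09 over 7 cofactors of maintenance and de novo methylation, -0.02 over 6 proteins that bind unmethylated CpG sites, -0.09 over 11 genes of base excision and demethylation and -0.28 over 14 replication genes.

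In stellate/fibroblast-like nuclei 8 of 9 genes of TET cofactor supply were below 0 with a median of -0.97, and 13 of 15 genes of the methyl donor cycle with a median of -0.74, against a median of -0.03 over all genes. The smallest p belonged to Fh1, the fumarate hydratase (log2 fold change -1.81), Idh1, the cytosolic isocitrate dehydrogenase (-1.78), and Bhmt2, a relative of Bhmt (-1.41), none of which passed (edgeR adjusted p = 0.370, 0.405 and 0.406). Both young libraries lay above both aged libraries for each of these 3 genes, which were picked by p, as for 23.8% of all genes tested. Fh1 was at 11.4 and 15.9 CPM in the aged and 45.6 and 59.4 CPM in the young libraries. The hepatocyte marker share of that class was 0.84% and 0.88% in the aged and 0.77% and 1.74% in the young libraries. Young replicate 2 held the largest share and the highest level of each of these 3 genes. The part of hepatocyte RNA in their age differences was not tested. Without 1 library the log2 fold changes ran from -2.06 to -1.59 (Fh1), from -2.58 to -0.81 (Idh1) and from -1.58 to -0.89 (Bhmt2). Over nuclei with little hepatocyte RNA the medians were -0.58 for 4 and -0.20 for 9 genes of these lists, against -0.01 over all genes. In endothelial-like nuclei 8 of 10 genes of TET cofactor supply were below 0 with a median of -0.31, and Fh1, Idh3a and Mbd6 had the smallest p (log2 fold change -1.74, -2.02 and -1.22, edgeR adjusted p = 0.999 for each).

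Across the 26 sums of a class and library with at least 20 nuclei, genes with levels among the most like those of Dnmt3a were Rnf213 and Mvb12b (Pearson r of log2(CPM + 1) 0.80 and 0.78). Those most like Tet2 were Sec24b, Ptprs and Erbin (r 0.78, 0.75 and 0.72), and those most like Tet3 were Asb2, Cotl1 and Naip5 (r 0.78, 0.78 and 0.77). These r values describe sums that share libraries and depth, and they were among the highest of 10073 genes searched. The other members had at least 10 UMIs in too few of the sums.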

How the data were processed

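Single-nucleus libraries were made with the 10x 3′ v2 chemistry, per the labels' protocols, and the authors deposited UMI counts per gene and barcode from Cell Ranger 7.1.0 on mm10, per the submitters' processing notes. How introns and strand were treated in counting was not stated there. A barcode was kept if it had 500 or more UMIs, 300 or more genes and no more than 5% of mitochondrial UMIs. The top doublet scores of Scrublet (0.8% per 1000 barcodes; its automatic threshold marked 0) were removed, 3927 in all, which left 33262 of 43013 barcodes. These were clustered by Leiden at resolution 1 in scanpy 1.11.5 (2000 variable genes, 30 components, 20 neighbours), leaving out 105 genes, among them the 7 members. The naming rule was set after the data were seen, and class names are rebuilt, not the authors'.

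Counts were summed per class and library (at least 20 nuclei) and tested with edgeR 4.0.16 (R 4.3.3): TMM scaling, filterByExpr, quasi-likelihood F test, Benjamini-Hochberg adjustment over all genes tested, threshold 0.05. SE is the absolute log2 fold change over the square root of F. The class and zone fits had the library as a block. Nuclei with little hepatocyte RNA are those whose hepatocyte marker share is under 50% of the median of hepatocyte-like nuclei in their library. All 7 members were named, with the 8 pathway genes of smallest p for age in hepatocyte-like nuclei and 3 in each other class tested, and the 3 genes with the most similar levels, of which 1 is not reported here. The tests were tested on simulated data. The members and lists were chosen with earlier results of these data known. Intervals and the floor of 3 counts cover counting error only.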

Additional observations from a re-analysis of the deposited data

How the results depend on the processing

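Of the results below, the pericentral call of Dnmt3a and the absence of a member called for age held in every alternative run, which were other scalings, DESeq2, no low-count filter, no doublet removal, stricter limits on UMIs and mitochondrial share, little hepatocyte RNA (not for zones) and leaving out each library. The replicate numbers did not pair the libraries (r of same-numbered deviations -0.21, 0.11 and 0.14 in hepatocyte-, stellate/fibroblast- and endothelial-like nuclei). With the replicate block 8, 28 and 0 genes were called for age and with crossed pairing 6, 0 and 0, none of them a member, and Dnmt3a in hepatocyte-like nuclei stood at 0.23 with the replicate block.

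Counts of members called moved as follows, and where no gene filter or sample number explains it the cause was not tested. Against hepatocyte-like nuclei, the stellate/fibroblast-like class had 1 member instead of 0 with no filter, no doublet removal or little hepatocyte RNA, and 0 to 1 without 1 library. The cholangiocyte-like class had 1 instead of 0 with no filter or DESeq2, and 0 to 1 without 1 library. The macrophage-like class had 0 with no filter and 2 with DESeq2, and 0 to 1 without 1 library. The mesothelial-like class had 0 with no filter, at most 1% mitochondrial UMIs or little hepatocyte RNA, and 0 to 0 without 1 library. Cycling nuclei had 1 with no filter and 0 to 1 without 1 library. Under TMM-scaled CPM, mean levels were 248 (Dnmt3a, mesothelial-like), 194 (Dnmt3a), 120 (Tet2) and 166 (Tet3, all hepatocyte-like) and 102 (Tet3, mesothelial-like).

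Genes called for age numbered 5 in hepatocyte-like nuclei (1855 with no filter, 929 with DESeq2, 2 with at most 1% mitochondrial UMIs, 1 to 1068 without 1 library), 0 in stellate/fibroblast-like nuclei (385, 45, 0 and 1 to 2183) and 0 in endothelial-like nuclei (51, 6, 0 and 0 to 1066).

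Values that changed sign, none of them called, were these log2 differences. With DESeq2, Tet2 mesothelial-like was 0.14 and Dnmt3b cycling -0.075. With RLE size factors Tet2 mesothelial-like was 0.13. With at least 1000 UMIs, Tet2 for age in endothelial-like nuclei was 0.24, and Dnmt3a and Tet3 cholangiocyte-like were -0.17 and -0.19. Tet1 macrophage-like, called in neither, was -2.38 with at least 1000 UMIs and -1.88 with at most 1% mitochondrial UMIs. With at most 1% mitochondrial UMIs, Tet3 by zone was -0.032, Dnmt3a endothelial-like -0.035, Tet2 mesothelial-like 0.20 and Dnmt1 mesothelial-like -3.79. With crossed pairing Dnmt3b for age in stellate/fibroblast-like nuclei was -0.26. Without doublet removal, Tet2 mesothelial-like was 0.036, Dnmt1 macrophage-like -0.36, Dnmt3b endothelial-like 0.050 and Tet3 by zone -0.011, and for age in stellate/fibroblast-like nuclei Bhmt2 was 0.17, Tet2 -0.16 and Dnmt3b -0.52. With no filter, Dnmt3a and Tet3 cholangiocyte-like were -0.091 and -0.24, Tet3 stellate/fibroblast-like -0.0045, Dnmt1 macrophage-like -0.027 and Dnmt3a endothelial-like -0.066. With little hepatocyte RNA, Tet2, Tet3 and Dnmt3a cholangiocyte-like were -0.35, -0.64 and -0.28, and Tet2 for age was -0.15 in stellate/fibroblast-like and 0.16 in endothelial-like nuclei.

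Without 1 library, values that changed sign ran as follows. For age in hepatocyte-like nuclei, Dnmt3a ran from -0.023 to 0.54, Dnmt3b from -1.69 to 0.29, Tet1 from -1.14 to 1.44, Tet2 from -0.54 to 0.56 and Tet3 from -0.22 to 0.16. For age in stellate/fibroblast-like nuclei, Tet2 ran from -0.26 to 0.58 and Tet3 from -0.38 to 0.14, and in endothelial-like nuclei Tet2 from -0.42 to 0.20. Against hepatocyte-like nuclei, Dnmt1 ran from -0.16 to 0.33 (macrophage-like) and -3.97 to 0.56 (mesothelial-like), Dnmt3a from -0.037 to 0.33 and Tet3 from -0.19 to 0.17 (cholangiocyte-like), and Dnmt3b from -4.47 to 0.24 (endothelial-like). By zone, Dnmt3b ran from -0.42 to 0.052 and Tet2 from -0.054 to 0.082. With every gene kept, Tet1 in endothelial-like nuclei ran from -1.09 to 0.53. In cycling nuclei, Dnmt3a ran from -0.13 to 0.034, Dnmt3b from -0.99 to 0.33 and Tet2 from -0.20 to 0.080. Where 1 library was left in a group, it was assumed to vary like the other group.

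With 2 libraries per age and members counted as rarely as Uhrf1 (32 UMIs) and Tet1 (129 UMIs), only large age differences were detectable. Macrophage-like nuclei could not be fitted with little hepatocyte RNA, mesothelial-like with at least 1000 UMIs or without aged replicate 2, and cholangiocyte-like with at most 1% mitochondrial UMIs or without young replicate 2.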

Other observations

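Lymphocyte-like nuclei reached 20 per library in the aged libraries only, so no age comparison was made of them. T/NK-like nuclei (52 and 211) held Dnmt3a at 181 and 217 CPM and Tet3 at 181 and 205 CPM in aged replicates 1 and 2. B-like nuclei (113 and 58) held Dnmt3a at 106 and 45.0 CPM, from 12 and 2 UMIs, and Tet2 at 168 and 90.0 CPM, from 19 and 4 UMIs. The 23 dendritic/monocyte-like nuclei of aged replicate 2 held Dnmt3a at 382 CPM and Tet2 at 305 CPM, from 10 and 8 UMIs.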
